A study of Homo sapiens with 9 samples.

Results

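This account covers the resting expression profile of the melanoma line WM266-4, an established line of human origin grown from a metastasis, as measured in the control arm of a microRNA transfection study. The line carried GFP, and the control cells received a control microRNA at 0.5 nM by lipofection, so every value below is that of transfected cells 48 h after transfection and not of untouched cells. Biotin-labelled whole-transcript RNA was hybridised to single-colour arrays. The labels describe the samples as biological triplicates of the 1 line. The 3 control arrays of 9 in the series were used, and the arrays of the other groups entered no value here. The value table holds 44629 rows, of which 15835 carry exactly 1 gene symbol. With the brightest row kept for each gene, 14812 genes remained, and they were ordered by their mean log2 RMA intensity over the 3 control arrays. Each named gene is one of these 14812.

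Melanoma arises from melanocytes, pigment cells of neural crest origin. In these cells the transcription factor MITF, itself controlled by SOX10 and PAX3, switches on the enzymes and structural proteins of the melanosome, the organelle in which melanin is made. MITF is known to bind an E-box of the form CATGTG in pigment gene promoters. Cutaneous melanomas commonly carry an active RAF, MEK and ERK cascade, whose transcriptional output includes its own phosphatases and Sprouty inhibitors, and melanoma lines are known to differ in how far they keep pigment genes or take on a less differentiated, neural crest-like profile.

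The pigment genes were searched for that E-box, since their rows lie at such different heights in this line. Of the 9 members of the melanin and melanosome list that were measured, 8 (all but PMEL) had a promoter in the RefSeq table (GRCh38.p14), and 6 of these 8 held CATGTG on either strand within the 250 bases before the start. The share among all 35116 promoters of that table was 9.42%, and among the 10736 measured genes with a promoter it was 6.95%. Shown here are the last 160 bases before the start, 5′ to 3′ on the gene's own strand, for the 6 promoters that held the motif and for MLPH, the brightest member without it. Capitals mark CATGTG or, where the motif lies on the other strand, its reverse complement CACATG, as it reads along the printed strand.
TYR: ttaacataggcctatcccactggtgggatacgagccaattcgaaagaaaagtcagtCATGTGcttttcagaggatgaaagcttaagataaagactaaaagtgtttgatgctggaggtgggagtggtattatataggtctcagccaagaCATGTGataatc
GPNMB: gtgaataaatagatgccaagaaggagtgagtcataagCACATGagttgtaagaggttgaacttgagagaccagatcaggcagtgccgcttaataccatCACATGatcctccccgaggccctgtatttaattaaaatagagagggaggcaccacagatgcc
TYRP1: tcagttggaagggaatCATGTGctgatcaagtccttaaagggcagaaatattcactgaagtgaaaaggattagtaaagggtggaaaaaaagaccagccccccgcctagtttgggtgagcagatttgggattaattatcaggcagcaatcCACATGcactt
GPR143: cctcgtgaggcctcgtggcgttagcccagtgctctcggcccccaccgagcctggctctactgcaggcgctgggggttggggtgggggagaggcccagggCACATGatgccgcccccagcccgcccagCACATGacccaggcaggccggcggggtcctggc
MC1R: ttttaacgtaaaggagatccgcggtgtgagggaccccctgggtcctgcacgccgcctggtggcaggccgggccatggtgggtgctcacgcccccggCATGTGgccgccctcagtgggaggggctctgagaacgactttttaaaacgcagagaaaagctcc
OCA2: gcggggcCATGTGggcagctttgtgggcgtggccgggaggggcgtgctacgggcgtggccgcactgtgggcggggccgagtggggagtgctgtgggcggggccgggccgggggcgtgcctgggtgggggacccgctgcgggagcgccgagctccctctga
MLPH: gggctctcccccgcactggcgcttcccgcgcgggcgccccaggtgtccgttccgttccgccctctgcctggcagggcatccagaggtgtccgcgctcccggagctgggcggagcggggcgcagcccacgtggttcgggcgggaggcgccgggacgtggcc
The windows are TYR chr11:89177715-89177874 (plus strand), GPNMB chr7:23246615-23246774 (plus strand), TYRP1 chr9:12693225-12693384 (plus strand), GPR143 chrX:9765848-9766007 (minus strand), MC1R chr16:89918702-89918861 (plus strand), OCA2 chr15:28099316-28099475 (minus strand), MLPH chr2:237487091-237487250 (plus strand). With positions counted back from the start and given a minus sign, matches began at -104 and -12 in TYR, at -123 and -62 in GPNMB, at -144 and -11 in TYRP1, and at -61 and -33 in GPR143. MC1R held 1 match, at -64, and OCA2 held 1, at -153. Promoters with matches thus belonged to genes at both ends of the scale, from TYR at a mean of 12.66 to OCA2 at 4.35, both on the log2 intensity scale. MLANA and MLPH had no match in this window. CATGTG was the only form of the E-box searched for. Other forms, such as the CACGTG in the printed MLPH promoter, were not counted. A match is a run of letters and no evidence of binding.

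The level of a gene on an array reflects how well its probes bind as well as how much RNA was present, so the order below is an order of signal and not of transcript number. The rows of GAPDH and EEF1A1, genes known as abundant in most cells, stood at 8.11 and 8.31, and that of the actin-binding protein CFL1 at 5.72. Other rows of such genes may be among the 28794 rows unnamed here. Levels ran from 1.52 to 13.02, a range of 11.5 log2 units, with a median of 6.18. A background limit was taken from 117 genes of families that melanoma cells are not known to use. Of these, 5 were vomeronasal and taste receptors and 112 keratin-associated and late cornified envelope proteins of hair and skin. The limit thus rests almost wholly on the latter. The median of the 117 genes was 4.20 and their 95th percentile 6.66, with 6.70, 6.55 and 6.67 on the single arrays (SD 0.077). Genes at or below 6.66 are called near background, the top 10% of genes bright (9.10 and above), and those between middle.

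By these bounds 8578 genes (57.9%) lay near background, 4752 (32.1%) were middle and 1482 bright. With the 75th percentile of the same families as the limit (4.98), the number near background would be 4280. The limit itself is therefore soft, and near background means only that the signal was no higher than in most genes of silent families. Just inside it lay PLSCR1, RPL32 and CLK4, and just outside TMEM143, CRNDE and RRN3P3. RPL32, a ribosomal protein gene, read 6.25, 6.82 and 6.89 on arrays 1 to 3, and so crossed the limit between arrays. Of the 117 reference genes, 6 lay above the limit, led by KRTAP5-7 at 8.43 on each array and LCE3B at 7.26, 7.25 and 6.91. The others were KRTAP9-2, LCE3A, KRTAP10-12 and KRTAP10-9, with means from 6.68 to 6.79. Protein-coding genes lay above the limit in 49.7% of cases, against 42.1% of all genes, 9.44% of long noncoding RNA genes and 7.44% of microRNA genes. Of the 11911 protein-coding genes, 1444 were bright. These shares are the baseline for the list counts below.

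**Figure D1:**
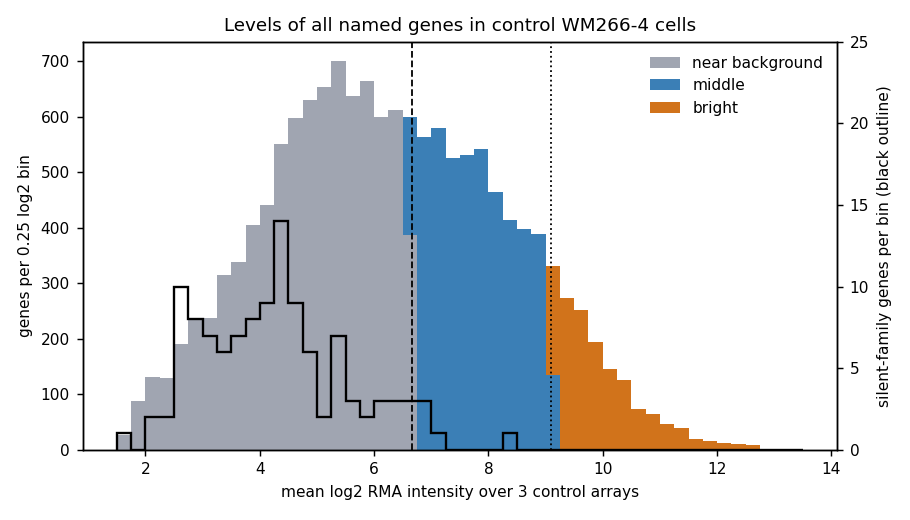
Histogram of mean log2 RMA intensity over the 3 control arrays for the named genes (left axis, genes per bin, stacked and coloured by class), without the 11 genes whose levels are not shown here. The black outline (right axis) is the silent-family reference, the dashed line the limit at 6.66 and the dotted line the bright bound at 9.10; the reference sits mostly left of the limit, around its median of 4.20.

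The arrays were close to each other, but their spread was not a plain measurement error. All 3 arrays held exactly the same value in 47.2% of genes, in 56.0% of genes near background, 37.5% of middle and 26.9% of bright genes, so an SD of 0 says nothing of precision. Among genes that were not tied, the median SD was 0.077, 0.072 and 0.060 in the near-background, middle and bright classes. Different genes also shared values within an array: on array 1 the 14812 genes held 9115 distinct values, and up to 82 genes stood on 1 value. On that array 45.5% of genes shared their value with at least 1 other gene, as did 61.8% of genes near background and 9.24% of bright genes. The order among dim genes is thus partly an order of ties.

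Array 1 stood apart from arrays 2 and 3. Arrays 2 and 3 were equal in 67.6% of genes, while array 1 equalled array 2 in 55.4% and array 3 in 52.0%. Among the 200 genes above the limit with the largest SD, array 1 was the array farthest from the others in 188. It was the lowest of the 3 in 133 of these genes and the highest in 66. FMOD, which encodes the collagen-binding proteoglycan fibromodulin, had the largest SD above the limit and read 7.04, 8.75 and 8.54. NPTX1 (a neuronal pentraxin) read 7.38, 8.58 and 8.68, GPC6 (a cell surface heparan sulphate proteoglycan) 8.38, 9.58 and 9.56, and NELL1 (a secreted growth regulator) 7.78, 8.92 and 8.99. In the opposite direction lay MIR1299, TPSB2 (a mast cell tryptase), CLIC2, MIR1290, CDK15 and RAMP2, the last with 8.32, 7.31 and 7.19. What set array 1 apart was not tested. A single value given for a gene below is either the same on all 3 arrays or their mean.

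**Figure D2:**
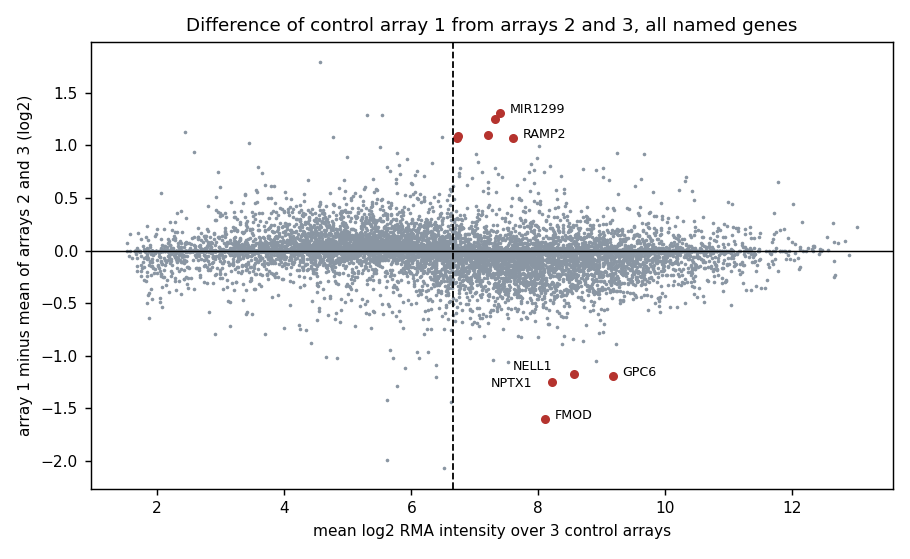
Difference between control array 1 and the mean of arrays 2 and 3 (log2 units) against mean log2 RMA intensity, one point per gene, with the limit at 6.66 dashed. Red points are the 10 genes above the limit with the largest SD; FMOD lies lowest among them and MIR1299, which read 8.28, 6.82 and 7.11, highest.

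The 30 brightest of the 14812 genes joined the translation machinery with secreted, lysosomal and pigment proteins. Rows without a gene symbol are outside this order, and 24 of them were brighter than every gene in it. RPS28, a small-subunit ribosomal protein, led with 13.17, 12.94 and 12.94. RMRP, the RNA of the RNase MRP complex, followed with 12.87, 12.87 and 12.95, and SPP1 (osteopontin, a secreted integrin ligand) with 12.88, 12.79 and 12.79. RPS15, RPL12, RPS27 and RPL41 are further ribosomal proteins and EEF2 the translocation factor of elongation, at 12.68 (12.53, 12.77 and 12.74). Proteins of the secretory pathway and lysosome formed another group, with CALR (calreticulin) at 12.59, 12.69 and 12.70, PPIB (a cyclophilin of the endoplasmic reticulum) at 12.46 on each array and CALU (calumenin) at 12.35, 12.34 and 12.27. CTSD (cathepsin D) read 12.63, 12.51 and 12.48, and PSAP (prosaposin) 11.99, 12.17 and 12.17.

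Among the 30 were also 3 pigment genes, TYR, GPNMB and PMEL, whose array values are given with their list. GDF15, a stress-induced cytokine of the TGF-beta family, read 12.48, 12.73 and 12.73, and FN1 (fibronectin) 12.81, 12.55 and 12.55. MMP8, the collagenase known from neutrophils, read 12.34, 12.08 and 12.05. SCD, which introduces the double bond of oleic acid, stood at 12.35. The remaining members were OAZ1 (a polyamine regulator), YBX1, ANXA2P2, ANXA5, TMSB10, COX6A1, HSPA9, PTBP1, ZC3H13 and APP, down to 12.08. ANXA2P2 is a pseudogene copy of annexin A2, and its signal cannot be told apart from that of its parent, a limit that also holds for ribosomal proteins with many processed copies. The span of the 30 was 0.93 log2 units, and 21 of the 29 neighbouring pairs in the order were closer than the larger of their SDs. Those 21 pairs do not differ in place beyond the spread between arrays. The other 8 pairs, SPP1 and RPS15 among them, lay farther apart than the larger SD. Some of them did so only through tied values, such as COX6A1 and HSPA9, each with an SD of 0. For such pairs the comparison does not show a difference in place.

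Pigment genes were high, with a split inside the list. Of 17 genes listed for melanin synthesis and the melanosome, 9 were measured, of which 4 were bright, 4 middle and 1 near background. The median was 9.02, a level that 89.3% of all genes did not exceed. TYR, tyrosinase, the rate-limiting enzyme of melanin synthesis, read 12.72, 12.62 and 12.65 (mean 12.66 ± 0.049, SD, n = 3), the sixth place of the 14812 genes. GPNMB, a melanosomal and lysosomal glycoprotein, read 12.32, 12.30 and 12.30, and PMEL, which builds the fibrils on which melanin is laid down, 12.14, 12.10 and 12.10. TYRP1, a melanogenic enzyme related to tyrosinase, read 10.35, 10.44 and 10.36. These 4 lay in the bright class on every array.

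The middle members were GPR143, the ocular albinism receptor of the melanosome, with 9.55, 8.76 and 8.76, MLPH (melanophilin, which links melanosomes to myosin) with 8.11, 8.18 and 8.18, MLANA (the Melan-A antigen) with 8.06 on each array, and MC1R (the melanocortin receptor) with 6.89 on each. GPR143 therefore moved across the bright bound with array 1. MC1R stood close above the limit. OCA2, a melanosomal anion transporter, was the single member near background, with 4.53, 4.42 and 4.10.

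The lineage transcription factors were measured in 9 of 10 cases and 8 lay above the limit, 2 of them bright. That is 88.9% above it, beside 49.7% of protein-coding genes. MITF read 9.87 and SOX10 9.43, each the same on all 3 arrays. SOX9 (8.93, 8.89 and 8.93), SOX5 (8.48), PAX3 (7.81, 7.84 and 7.84), TFE3 (7.72, 7.80 and 7.80), LEF1 (7.66, 7.45 and 7.53) and USF1 (7.31, 7.60 and 7.59) were middle. TFEB, the relative of MITF that drives lysosomal genes, lay near background at 5.65. Of the 7 markers set for melanocytic identity, 6 were measured here (TYR, TYRP1, PMEL, MLANA, MITF and SOX10), and all of them were above the limit.

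Genes of the neural crest and undifferentiated state were measured in 14 of 19 cases, with 5 bright, 6 middle and 3 near background. Above the limit lay 78.6% of the 14, beside 49.7% of protein-coding genes. VIM (vimentin, 11.24, 11.18 and 11.24) and TNC (tenascin C, 11.01, 11.12 and 11.12) were the brightest, followed by FOSL1 (9.37, 9.51 and 9.50), NES (nestin, 9.27, 9.52 and 9.58) and TEAD1 (9.30, 9.24 and 9.24). The receptor AXL, whose level is often used to mark undifferentiated melanoma, read 8.66 on each array. NGFR, the neural crest stem cell receptor, read 6.53 and EGFR 4.52, both near background, as was TEAD3 at 5.52. JUN (7.72, 8.25 and 8.46) and CCN2 (6.38, 7.16 and 7.24) were lower on array 1, and CCN2 was below the limit on that array alone. Bright pigment genes and a middle level of AXL were thus found in the same RNA. In bulk RNA, fewer cells with a transcript and less of it per cell cannot be told apart.

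**Figure D3:**
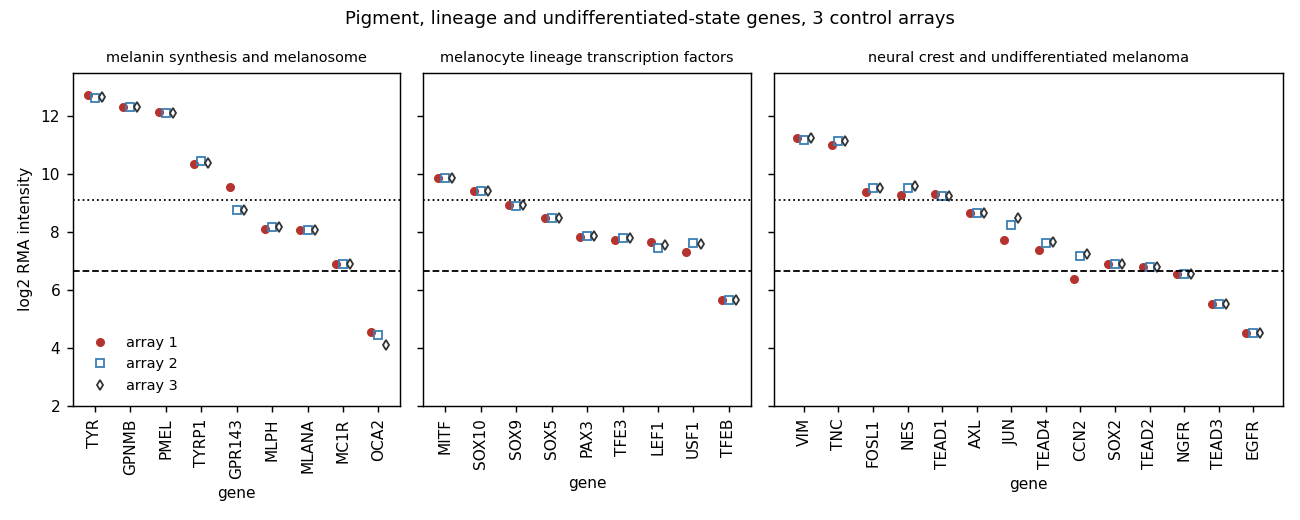
Log2 RMA intensity on each control array (red circles array 1, blue squares array 2, black diamonds array 3) for the measured members of 3 gene lists, ordered by mean, with the limit at 6.66 dashed and the bright bound at 9.10 dotted. TYR, GPNMB and PMEL lie above 12 on every array, OCA2, TFEB, TEAD3 and EGFR lie below the limit, and GPR143, JUN and CCN2 show the separate reading of array 1.

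Regulators of the epithelial to mesenchymal switch were uneven. SNAI2 (Slug), which is also a neural crest factor, was bright with 11.63, 11.66 and 11.66. SNAI1 (7.77, 7.77 and 7.73), PRRX1 (7.64, 7.93 and 7.84) and ZEB2 (7.38) were middle. ZEB1 at 6.40, TWIST1 at 3.60 and TWIST2 at 4.13 were near background, and so were all 5 epithelial regulators, GRHL2, OVOL1, OVOL2, ESRP1 and ESRP2, with means from 4.75 to 6.25. In all 4 of 12 members (33.3%) lay above the limit, beside 42.1% of all genes.

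Among melanoma surface antigens and S100 proteins, 11 of 14 measured genes (78.6%) were above the limit, beside 49.7% of protein-coding genes. Of the 14, 4 were bright. S100B, the calcium-binding protein used as a melanoma serum marker, stood at 11.84 on each array. CD63, a tetraspanin of lysosomes and melanosomes, read 10.69, 10.80 and 10.80, L1CAM (an adhesion molecule) 9.46, 9.34 and 9.34, and CSPG4 (the melanoma proteoglycan NG2) 9.33, 9.38 and 9.33. MCAM read 8.73, 8.78 and 8.78, and CD276 (B7-H3) 8.28, 8.29 and 8.27. S100A4 was near background at 3.96, as were S100A13 (5.95, 6.42 and 6.42) and ALCAM, which crossed the limit with 6.48, 6.72 and 6.72. Cancer-testis antigens, germline genes often switched on in tumours, were measured in 7 of 27 listed cases. PRAME was bright at 9.27, GAGE2A read 7.99 and CTAG2 7.05, while DDX43 lay near background at 2.91. The other bright members were TYMS (10.91, 11.13 and 11.07) and CEP55 (9.66). TYMS also stands in the list of DNA replication and mitosis, so this list is not limited to germline genes. GAGE2A belongs to a family of near-identical copies, and its signal cannot be told apart from theirs.

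Genes known as targets and feedback inhibitors of the MAP kinase cascade were mostly bright. Of 15 measured, 14 (93.3%) lay above the limit, beside 49.7% of protein-coding genes. In the list 9 were bright, with a median of 9.35. CCND1 (cyclin D1) read 11.03, 11.22 and 11.28, SPRY2 (a Sprouty inhibitor of receptor signalling) 10.84, 10.95 and 10.95, and DUSP4 (a nuclear MAP kinase phosphatase) 10.37, 10.48 and 10.48. SPRY4 at 10.29 and DUSP6, the ERK-specific phosphatase, at 10.27 were each the same on all arrays.

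The ETS factors ETV5 (9.20, 9.14 and 9.03), ETV4 (9.03, 8.92 and 8.91) and ETV1 (8.51, 8.33 and 8.33) followed. The immediate early genes EGR1 (9.06, 9.40 and 9.59) and FOS (7.91, 8.29 and 8.67) were lowest on array 1. DUSP5 was the single member near background, at 6.52. Of the cascade itself, 8 of 18 genes were measured here. SHOC2, a scaffold that frees RAF (9.51, 9.82 and 9.80), and MAP2K1, the kinase MEK1 (9.29, 9.29 and 9.27), were bright, ARAF read 8.03, MAPK3 (the kinase ERK1) 7.79, 7.77 and 7.77, and HRAS 7.70. MAP2K2 (5.87, 6.01 and 6.01) and KSR2 (4.49) were near background.

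Receptor tyrosine kinases, many but not all of which feed this cascade, lay above the limit in 15 of 31 cases (48.4%, close to the 49.7% of protein-coding genes). Their median was 6.24. ROR1 (9.66, 9.73 and 9.73), ERBB3 (9.42 on each array), EPHA3 (9.41, 9.40 and 9.40) and RYK (9.37 on each) were bright. MET, the hepatocyte growth factor receptor, read 9.48, 8.77 and 8.80, DDR2 (a collagen receptor) 8.93, 8.77 and 8.83, and IGF1R 8.19, 8.18 and 8.19. KDR, a VEGF receptor, read 8.12, 8.33 and 8.31. KIT, the receptor that melanocyte precursors depend on, lay near background with 4.42, 4.39 and 4.42, as did ERBB4 (3.87), FGFR1 (6.01), RET (5.59) and ALK (5.56). FLT1 crossed the limit, with 6.60, 7.41 and 7.41.

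**Figure D4:**
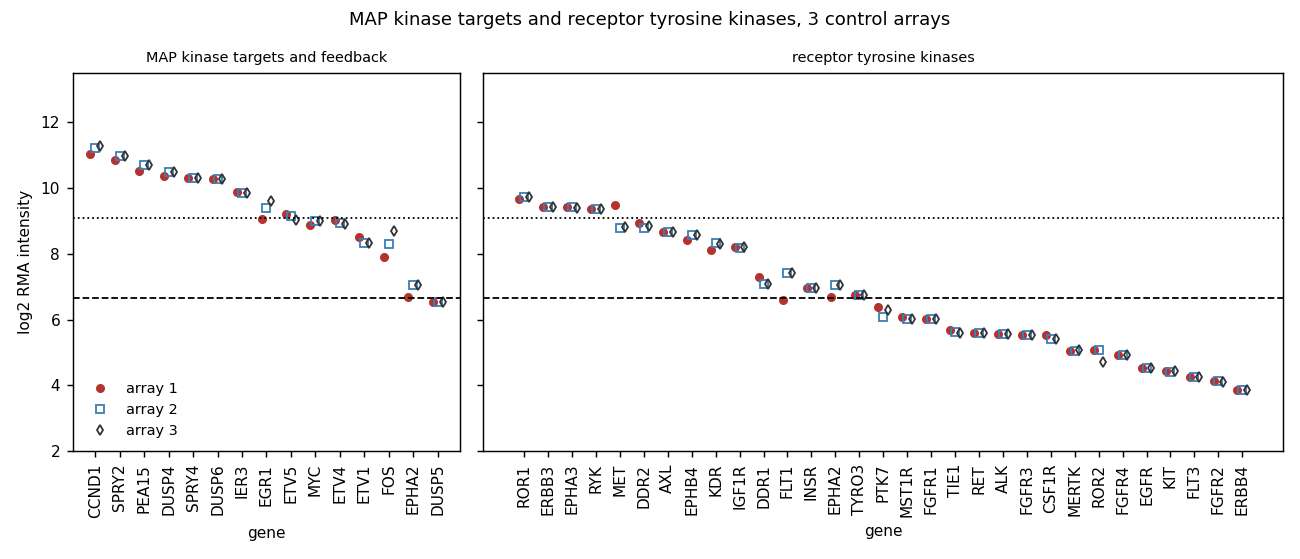
Log2 RMA intensity on each control array (symbols as array 1 to 3 in the key) for 15 MAP kinase targets and feedback genes and 31 receptor tyrosine kinases, ordered by mean, with the limit at 6.66 dashed and the bright bound at 9.10 dotted. In the first panel DUSP5 alone has its mean under the limit, while in the second 16 of 31 do.

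Genes of the dividing cell were high. All 22 measured genes of DNA replication and mitosis were above the limit, beside 49.7% of protein-coding genes. Of the 22, 16 were bright, with a median of 9.81. TOP2A, the topoisomerase of dividing cells, read 11.30, 11.31 and 11.29, PCNA (the sliding clamp) 10.99, 11.19 and 11.07, and MKI67 (the Ki-67 antigen) 10.72, 10.67 and 10.67. The kinases PLK1 (10.35) and AURKB (10.05, 10.05 and 10.11) were bright too. MCM7 (9.53, 10.13 and 10.10) and MCM5 (9.01, 9.43 and 9.54), subunits of the replicative helicase, were lower on array 1.

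Cyclins and their kinases were above the limit in 15 of 17 cases (88.2%), beside 49.7% of protein-coding genes. CDK4, the partner of cyclin D1, read 10.48, 10.73 and 10.79 and CDK2 10.14, 10.13 and 10.14, whereas CCND2 (4.87) and CCND3 (5.69) were near background. Of the 10 measured inhibitors and tumour suppressors, 9 (90%) were above the limit. RB1, the retinoblastoma protein that CDK4 inactivates, read 10.74, 10.66 and 10.66, SMAD4 9.51, 9.60 and 9.58, and NF1 (a RAS inhibitor) 9.49, 9.37 and 9.37. CDKN2A, which encodes the CDK4 inhibitor p16, was the exception at 4.67 on each array.

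In the BCL2 family 12 of 16 measured genes (75%) were above the limit, beside 49.7% of protein-coding genes, and 1 was bright. This was BCL2A1, an anti-apoptotic member known as a MITF target in melanoma, with 10.26, 10.54 and 10.50. MCL1 read 8.42, 9.00 and 9.00, BAX (a pore former) 9.01 on each array, BCL2L1 7.77, 7.82 and 7.77 and BCL2 7.19, 7.48 and 7.56. The BH3-only genes BIK (4.51), BCL2L11 (6.26) and BMF (6.62) were near background, while BBC3 read 6.93 and PMAIP1 6.73, 7.29 and 7.36.

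Housekeeping lists ranged from middle to bright medians. The share above the limit to set beside their counts is the 49.7% of protein-coding genes. All 8 chaperones were bright (median 11.7), among them CANX (calnexin) at 11.73 and HSPB1, a small heat shock protein, with 11.86, 11.69 and 11.69. HSPA1A (10.48, 10.73 and 10.79) shares nearly all its sequence with a neighbouring copy. All 10 measured genes of the lysosome and iron list were above the limit and 8 bright, with a median of 10.9, including CTSA (11.70), GRN (11.42, 11.51 and 11.51) and LAMP1 (10.92, 11.04 and 11.05). In the respiratory chain, 9 of 10 were above the limit, with COX4I1 at 11.03, 11.44 and 11.37 and UQCRC2 at 11.30, 10.88 and 10.80. All 9 glycolytic genes were above the limit, led by GPI (11.96, 12.06 and 12.04), and LDHB read 9.71, 9.60 and 9.60 beside LDHA at 8.33, 8.25 and 8.25. Every one of the 17 aminoacyl-tRNA synthetases measured was above the limit, 12 of them bright, with NARS1 (11.77, 11.67 and 11.66) first. Cytosolic ribosomal proteins were above it in 44 of 51 cases, with a median of 7.74 in the middle class, and mitochondrial ones in 67 of 73, with a median of 8.30 and MRPS15 (11.25, 11.19 and 11.17) highest. Translation factors were above it in 7 of 9 cases with a median of 8.31. EEF2, EEF1G (11.68, 11.73 and 11.78) and EIF1 (10.41, 10.56 and 10.57) were bright, while the cap-binding protein EIF4E (6.48, 6.48 and 6.49) and NACA (5.78) were near background.

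Matrix and secreted proteins showed both extremes. Of 18 measured proteases and inhibitors, 15 (83.3%) were above the limit, beside 49.7% of protein-coding genes, and 11 were bright. TIMP3, a matrix-bound metalloprotease inhibitor, read 12.08, 12.07 and 11.98, ADAM10 (a sheddase) 11.16, MMP14 (the membrane-type collagenase) 10.86, 10.86 and 10.90, and MMP16 9.62, 9.61 and 9.62. MMP10 (3.11), MMP13 (3.47, 3.23 and 3.23) and MMP1 (4.67, 6.09 and 6.09) were near background, MMP1 with a gap of array 1. Of 27 genes listed for the matrix itself, 10 were measured and 7 (70%) were above the limit. No collagen or laminin was among the 10. VCAN (versican, 10.55, 10.66 and 10.66) and THBS1 (10.61, 10.62 and 10.62) were bright besides FN1 and TNC. DCN (decorin) stood at 2.51 and LUM (lumican) at 5.15, 6.27 and 6.27.

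Of 22 cytokines and immune ligands, 14 lay near background and 8 (36.4%) above the limit. The share above it was 42.1% of all genes and 49.7% of protein-coding genes. Of the 22 members, 6 were bright. Beside SPP1 and GDF15 these were MIF (10.90, 10.76 and 10.76), PDGFA (9.85, 10.09 and 10.09), LIF (9.24, 9.64 and 9.71) and CD47, the signal that restrains phagocytes (9.37, 9.41 and 9.41). The checkpoint ligands CD274 (PD-L1, 5.44) and PDCD1LG2 (5.27) were near background. CCL2, the monocyte chemokine, read 4.29, 6.21 and 6.34 and CXCL8 (interleukin 8) 3.98, 4.86 and 5.11, both below the limit on every array and both lowest on array 1. Interferon-induced genes were above the limit in 6 of 12 cases, close to the 49.7% of protein-coding genes, and none was bright, with IFIT3 (7.63, 7.68 and 7.78) highest and IFI44L (4.20) lowest. Of 16 genes listed for the class I pathway, 4 were measured, and no HLA heavy chain gene was among them. B2M (the light chain) was bright with 10.32, 10.32 and 10.31, and TAPBP read 8.75, 8.78 and 8.78. ERAP1 stood just above the limit at 6.665 on each array, and ERAP2 lay near background at 5.36.

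Of the genes that make microRNAs or act with them, 7 of 8 measured (87.5%) were above the limit, beside 49.7% of protein-coding genes. XPO5, the exporter of precursor hairpins, was bright at 9.12, GEMIN4 read 8.54 and DGCR8, the partner of the nuclear processing enzyme, 6.92, 7.13 and 7.13. TARBP2 was just under the limit at 6.65. Of the telomerase and pluripotency genes only TERC, the telomerase RNA, was above it, with 9.18, 8.93 and 8.93. TERT, the catalytic subunit, read 5.93, and NANOG 2.35, 2.45 and 2.35.

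Markers of other cell types were measured in 52 cases, of which 4 lay above the limit (7.69%), with a median of 5.09. KDR, CSF1R, DCN and LUM among them also stand in other lists above. None of 8 T and NK cell markers, 5 myeloid, 4 fibroblast, 7 hepatocyte, 3 muscle and 2 erythroid markers did so. The 4 were CD22, a B cell lectin, with 10.70, 10.84 and 10.84, KDR, the simple-epithelium keratin KRT18 (8.15, 8.11 and 8.11) and MBP, a myelin protein (7.84). The other B cell markers BLK (5.38), PAX5 (5.20, 5.19 and 5.19) and VPREB1 (5.51) were near background. Among 48 keratins KRT18 alone was above the limit, and its usual partner KRT8 read 5.48, 5.75 and 5.64.

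**Figure D5:**
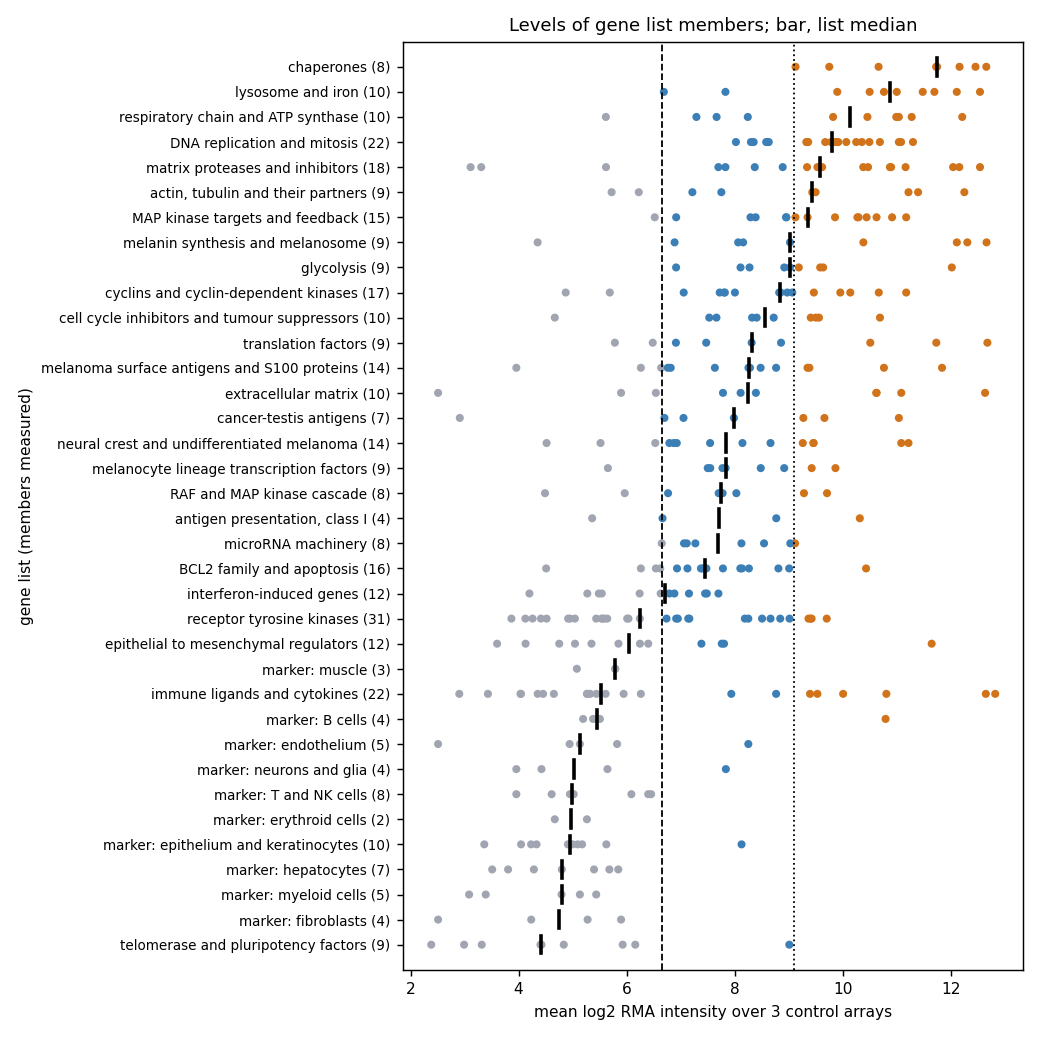
Mean log2 RMA intensity over the 3 control arrays for each measured member of the gene lists (grey near background, blue middle, orange bright), with black bars at list medians, lists ordered by median and the number measured in brackets. Chaperones have the highest median (11.7), the telomerase and pluripotency list the lowest (4.42), and most marker lists lie left of the dashed limit at 6.66.

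Of the other gene families, some lay near the share of all genes above the limit (42.1%) and some far from it. Near it were zinc finger ZNF genes, with 191 of 491 (38.9%), among them ZNF106 at 11.76, 11.76 and 11.72. TRIM ubiquitin ligases were above the limit in 26 of 61 (42.6%), led by TRIM33 (10.77, 10.73 and 10.73). HOX genes, which set position along the body axis, were above it in 10 of 27 (37.0%) with none bright, and HOXB2 (8.02, 8.08 and 8.08) was highest. Claudins, the sealing proteins of epithelial tight junctions, were above it in 2 of 24 (8.33%), CLDN1 (8.25) and CLDN3 (6.69, 6.67 and 6.67). Splicing factors were above it in 35 of 46 (76.1%), of which 24 were bright, with HNRNPM (11.62, 11.74 and 11.74) and SRSF1 (11.34) among the first. HNRNPA1P10, the highest of that family at 11.99, is a pseudogene copy.

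Promoters differed in composition between the classes. In the 250 bases before the start, the median ratio of observed to expected CpG was 0.578 in 5585 near-background genes, 0.835 in 3901 middle and 0.859 in 1250 bright genes. The motif GGGCGG, the core of the GC box, was found on either strand in 46.9%, 70.0% and 69.4% of them, and TATAAA, the TATA box, in 11.2%, 4.72% and 5.04%. CCAAT was held by 32.6%, 35.8% and 37.3%. In all 35116 promoters the shares were 42.6% for GGGCGG, 10.7% for TATAAA and 32.0% for CCAAT. The E-box CATGTG was held by 8.29%, 5.46% and 5.60% of the near-background, middle and bright promoters. The pigment promoters had a median CpG ratio of 0.388 over 8 genes, and GGGCGG in 50.0% of them. Middle and bright promoters lay closer to each other than to the near-background class in the CpG ratio and in the shares of GGGCGG and TATAAA. Taken as ratios between classes, the shares of CCAAT differed least. No test of these differences was run. The classes differ in make-up, since microRNA and long noncoding genes lie mostly near background, but among protein-coding genes alone the CpG ratio was 0.604, 0.836 and 0.859.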

How the data were processed

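Expression was read on single-colour whole-transcript arrays of WM266-4 RNA, and the 3 control arrays were used. The values deposited by the authors are log2 intensities, made with oligo, affy and RMA per the submitters' processing notes; the versions, the order and the build of the annotation were each not given in the sources used here. Rows were named from the platform annotation, and all 14812 gene IDs matched RefSeq (GRCh38.p14). The brightest row per gene was kept, levels are means of 3 arrays, and the number of arrays limits the precision. The background limit was planned from olfactory receptors, but 1 was named here, so the families planned as its alternative, without the defensins and interferon alpha genes, which had no named member, were used at their 95th percentile. Members and lists were chosen with earlier results of these data known. Named genes are list members, the 30 brightest, the 10 with the largest SD above the limit, 3 on each side of the limit, and leading family members. Promoters are the first listed start per gene, matched for 10736 genes. There was 1 group, so no test was run. The ranking code was checked on simulated data, which support no value given here. Alternatives were other limits, reference genes, row and array summaries, single arrays left out and a 150-base promoter window. Python 3.11.15 and pandas 2.3.3 were used. Y-linked genes and XIST are not reported.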

Additional observations from a re-analysis of the deposited data

Results flagged for a closer look

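The 28794 rows with no gene symbol entered no result above, and 4387 of them (15.2%) lay above the background limit of 6.66 on the mean of the 3 control arrays. Their median was 4.42. At or above the bright bound lay 1133 of these rows, and 24 were brighter than every named gene, up to 13.52. Which transcripts they read is not given in the annotation used here.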

How the results depend on the processing

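The background limit moved with its percentile and its reference. It was 6.66 at the 95th percentile of the silent families, and settings chosen after seeing the data gave 7.09 at their 99th percentile, 4.98 at their 75th, 7.97 with the markers of other cell types and 5.73 with the keratins as reference. The number of genes near background was 8578, against 9551, 4280, 11460 and 6264 in that order. Leaving out 1 array at a time gave 8402 to 8609 genes and a limit of 6.60 to 6.67. The mean of all rows of a gene gave 8680 and the median of the arrays 8581. Over the 36 lists with a measured member, the count above the limit stayed within 1.5 times its value in all 36 under these row, array and 99th percentile settings, and moved further in 15 at the 75th percentile, 7 with keratins and 8 with the markers. Of the 30 brightest genes 27 to 30 were shared under each setting. Settings of the limit and its reference cannot change this order, so only the row and array settings bear on it. The median percentile of the respiratory chain fell from 96.6 to 88.5 with the mean of all rows. With 150 promoter bases in place of 250, the CpG ratio was 0.605, 0.877 and 0.898 in the near-background, middle and bright classes and 0.528 in the pigment list, where 62.5% of promoters then held CATGTG in place of 75%. TATAAA was then held by 8.13%, 2.56% and 2.88% of the classes. The planned olfactory receptor settings were not run, since 1 such gene was named. No paired analysis was possible because the result comes from no test and 1 group was used. Signal near background and probe binding limit what a low or a ranked level shows.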

Other observations

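Noncoding genes were mostly dim. Of 1022 microRNA genes 367 lay inside the span of a measured protein-coding gene, and 30 of these (8.17%) were above the limit, against 46 of 655 (7.02%) outside such a span. Strand was not considered, and a microRNA gene inside a gene that was not measured counts as outside. The split therefore does not separate microRNAs made from a surrounding transcript from the others. Where the surrounding gene was above the limit the microRNA gene's median was 3.97 (206 genes), and where it was near background 3.80 (161 genes). MIR4737 was the brightest at 10.99, 10.80 and 10.79, and lies within HEATR6 (8.76), followed by MIR5047 (9.41, 9.37 and 9.39), which lies within DDX5 (11.49). MIR663B read 9.34, 9.20 and 9.10, although ANKRD30BL, in whose span it lies, stood at 2.99. What RNA such rows read, precursor, surrounding transcript or another, was not tested. Long noncoding LINC genes were above the limit in 36 of 457 cases (7.88%), led by LINC00987 at 10.96 on each array. Small nucleolar and Cajal body RNAs were above it in 11 of 21, with SCARNA17 at 9.80, 9.71 and 9.85 and SCARNA7 at 8.63, 9.47 and 9.58.

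Leaving out the reference genes that set the limit, the share of protein-coding genes above it ran from 40.7% of 427 genes on chromosome X and 43.8% of 489 on chromosome 4 to 57.3% of 262 on chromosome 22. On chromosome 21, which holds 44 of the reference genes, it was 50.5% of 103 genes without them and 36.7% of 147 with them. The share of bright genes was lowest on chromosome 21 (6.80%) and highest on chromosome 18 (24.0% of 175 genes), with chromosome 17 next (17.2%). Among all protein-coding genes, 1444 of 11911 were bright. The share above the limit on chromosome 18 was 54.3%. The calculation without the reference genes was added after seeing the data, and no test of the differences was run. Copy number was not measured here.

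MMP8 at a mean of 12.16 and CD22 at 10.79 are genes known from blood cells that were bright in this line, while the other markers of those cells stayed near background (LYZ 3.08, MPO 5.13, CD14 4.79, 4.80 and 4.79). Each rests on a row of the array that no second measurement here checks.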
